A study of Mus musculus with 5 samples.

Results

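*Paupar* is a long non-coding RNA whose gene lies on mouse chromosome 2, beside *Pax6*. The regions described here are the peaks of *Paupar* occupancy that the deposited list places on that same chromosome, 268 of 2849 peaks in all (9.41%, Wilson 95% interval 8.39 to 10.5). They were taken by the chromosome named for each peak, and no score, width or gene entered the choice. Occupancy was measured by CHART-Seq, in which biotinylated DNA oligonucleotides complementary to an RNA pull it out of crosslinked chromatin and the DNA that comes with it is sequenced. The cells were N2A, an established mouse neuroblastoma line that received no treatment. There were 2 pull-downs with a cocktail of *Paupar* oligonucleotides, 2 control pull-downs with an oligonucleotide to the bacterial *LacZ* sequence, and 1 library of input DNA. The list is joined over the pull-downs and gives each peak a position and a score, so that neither replicate error nor read depth was known for any peak and no difference between groups of peaks could be tested. Intervals below cover counting error only, and peaks were treated as independent counts.

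*Pax6* encodes a paired-box and homeodomain transcription factor that directs development of the eye, the brain and the endocrine pancreas. Its neighbourhood is rich in distal enhancers, several of them known in the introns of *Elp4*, and it also gives rise to non-coding RNAs, among them *Paupar* and the antisense transcript *Pax6os1*. A nuclear RNA can act in cis, near the gene that makes it, or in trans, at places that chromatin folding or protein partners bring it to. How the peaks of its own chromosome are spread around the *Paupar* locus is the question these regions address.

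The full-length *Paupar* primers placed the locus at chr2:105498019-105501535 of mm9, 3517 bp on the minus strand, 7518 bp from the start of *Pax6* (chr2:105509053-105543317, plus strand). The locus lies within the span annotated for *Pax6os1* (chr2:105376237-105510487, minus strand). The 4 capture oligonucleotides, 24 nt each, are shown because each matches the locus over its whole length and so marks the DNA that encodes the captured RNA. They read as the plus strand, opposite to the transcript. PauparCHART2041 lies at chr2:105499437-105499460, PauparCHART2067 at chr2:105499411-105499434, PauparCHART254 at chr2:105501224-105501247 and PauparCHART428 at chr2:105501050-105501073.
PauparCHART2041: ctctcagaaactgcgatacaaaag
PauparCHART2067: gaggcctagtcaaaatatctccac
PauparCHART254: ggcttaagtccacccctggattcg
PauparCHART428: gcctggaactagatcaaggcagag

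None of the 268 peaks overlapped the *Paupar* locus, and none had its midpoint within 100 kb of it. This is a statement about listed peaks, since the list gives no signal outside them. The paper reports enrichment of the RNA at the locus itself, which was not analysed here. In the 0.204 Mb up to that distance, a count of 0 allows a density of up to 14.7 peaks per Mb at the floor of 3 counts, and up to 18.1 by the exact Poisson interval. The nearest peaks were a pair on the low-coordinate side. The first, chr2:105386691-105387336, was 646 bp wide with a score of 10.76, rank 168 of the chromosome. The second, chr2:105387531-105390000, lay next to it, was 2470 bp wide and had a score of 19.32, rank 65. The near edge of the second lay 108 kb from the locus. Both fell in an intron of *Pax6os1*, upstream of *Pax6*. The study's own qPCR primers named Pax6OS1BS lie inside the first of them, at chr2:105387133-105387194. In its reporter names the paper uses BS for a *Paupar* binding site. The second peak was thus above the upper quartile of the scores of the chromosome (18.1) and the 7th widest, and the first was below the median score.

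The sequences of the pair are shown because they are the listed peaks closest to the *Paupar* gene. The stretch of the first, chr2:105387088-105387237, has both primer sites in capitals. The stretch of the second, chr2:105387543-105387742, is repetitive, with its most repeated 12-nt word in capitals. That word occurred 9 times in the peak and 7 times in the stretch shown.
First peak: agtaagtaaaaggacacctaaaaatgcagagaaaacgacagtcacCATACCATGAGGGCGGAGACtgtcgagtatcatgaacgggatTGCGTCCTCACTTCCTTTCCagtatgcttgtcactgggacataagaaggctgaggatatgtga
Second peak: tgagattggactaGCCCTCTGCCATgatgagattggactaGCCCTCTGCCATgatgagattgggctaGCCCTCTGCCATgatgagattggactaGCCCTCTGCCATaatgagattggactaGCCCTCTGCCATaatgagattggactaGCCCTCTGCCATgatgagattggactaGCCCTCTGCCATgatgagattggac

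On the other side of the locus the nearest peak was chr2:106678016-106678258, 1.18 Mb away, 243 bp wide with a score of 15.55. It lay in an intron of *Mpped2*, which encodes a metallophosphoesterase, and its nearest gene start was that of *2700007P21Rik*. The next, chr2:106990158-106990379, was 222 bp wide with a score of 6.58 and lay 90.5 kb upstream of *Fshb*, the β subunit of follicle-stimulating hormone. No peak was listed in the 1.29 Mb between the *Pax6os1* pair and the *Mpped2* peak, which hold *Paupar*, *Pax6*, *Elp4*, *Immp1l*, *Dnajc24* and *Dcdc5*. Gaps of this size were common on the chromosome. Of its 267 gaps between neighbouring peaks, 36 were longer, with a median of 307 kb, and 54.6% of the sequence between peaks lay in gaps at least as long. A distance of 108 kb from a peak was also not unusual, as 24.7% of the unambiguous bases of the chromosome lay as near to a peak or nearer. Of the 1845 protein-coding genes of the chromosome, 557 (30.2%) started nearer to a peak than *Pax6*, whose start was 120 kb from one.

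Within 5 Mb of the locus, here called cis, there were 9 peaks in 10.0035 unambiguous Mb, or 0.900 per Mb (exact Poisson 95% interval 0.411 to 1.71). The rest of the chromosome held 259 peaks, 1.54 per Mb (1.36 to 1.74). The ratio of cis to rest was 0.585 (exact interval 0.264 to 1.13), so the cis region did not hold more peaks per Mb, and a lower density was not distinguishable at these counts. The cis region is gene-poor, with 5.90 protein-coding gene starts per Mb against 10.6. On the other chromosomes, peaks per base were counted in 8 bins of GC content of 100 kb windows, and these densities gave the number expected for any region of chromosome 2 from its GC content. For the cis region this was 9.01 and the number counted was 0.999 of it (0.457 to 1.90). For the rest they gave 196, and the number counted was 1.32 times that (1.16 to 1.49). The chromosomes behind these densities include X, which held 0.197 peaks per Mb, 0.321 of its own number expected from GC. Including X lowers the expected numbers throughout, by an amount that was not computed.

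The other 5 cis peaks all lay on the low-coordinate side. The peak at chr2:101871768-101872338 (score 7.03) was in an intron of *Ldlrad3*, a low-density lipoprotein receptor class A domain gene, and its nearest gene start was that of *Commd9*. Upstream of *Ldlrad3* were chr2:102038389-102038923 (score 21.35) and chr2:102097543-102098498 (score 17.28), 12.1 kb and 71.5 kb from its start. The peak at chr2:103360864-103361820 (score 20.34) lay 36.0 kb upstream of *Cat*, which encodes catalase. The last, chr2:103922626-103923398 (score 10.25), was in an intron of *Cd59b*, nearest to the start of *Cd59a*, both encoding inhibitors of complement. Thus 7 cis peaks were on the low side and 2 on the high side.

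Cis peaks were of ordinary height and width. Their median score was 15.55 (order-statistic 95% interval 7.03 to 20.34) against 12.27 (11.57 to 13.34) in the rest of the chromosome. The direction of this difference in medians depends on the distance chosen, as the median score within 2 Mb was 10.76. The highest cis score was 21.35 against 58.42 in the rest. A maximum rises with the number of peaks, here 9 against 259, so the maxima do not compare heights. Their median width was 646 bp (243 to 957) against 534 bp (507 to 601). Scores of at least 10 were held by 7 of the 9 cis peaks. Over the chromosome 187 peaks reached 10 (69.8%, 64.0 to 74.96), beside 70.7% of all peaks of the list.

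Peaks per Mb were fewer from 1 to 10 Mb than in the bands beyond, with intervals that overlap those of most of them. From 0.1 to 1 Mb there were only the 2 peaks of the pair (1.11 per Mb, 0.135 to 4.01). From 1 to 5 Mb there were 7 peaks (0.875 per Mb, 0.352 to 1.80) and from 5 to 10 Mb 7 peaks (0.704 per Mb, 0.283 to 1.45). Density was 1.35 per Mb (27 peaks) from 10 to 20 Mb, 1.13 (45 peaks) from 20 to 40 Mb, 1.63 (65 peaks) from 40 to 60 Mb and 1.91 (69 peaks) from 60 to 80 Mb. Beyond 80 Mb, where only the low-coordinate side reaches, 46 peaks gave 2.05 per Mb (1.50 to 2.73). Relative to regional GC the order was different. The ratio of counted to expected was 0.996 (0.400 to 2.05) from 1 to 5 Mb, 1.80 (0.724 to 3.71) from 5 to 10 Mb, between 1.10 and 1.37 in the 4 bands from 10 to 80 Mb, and 2.15 (1.58 to 2.87) beyond 80 Mb.

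**Figure D1:**
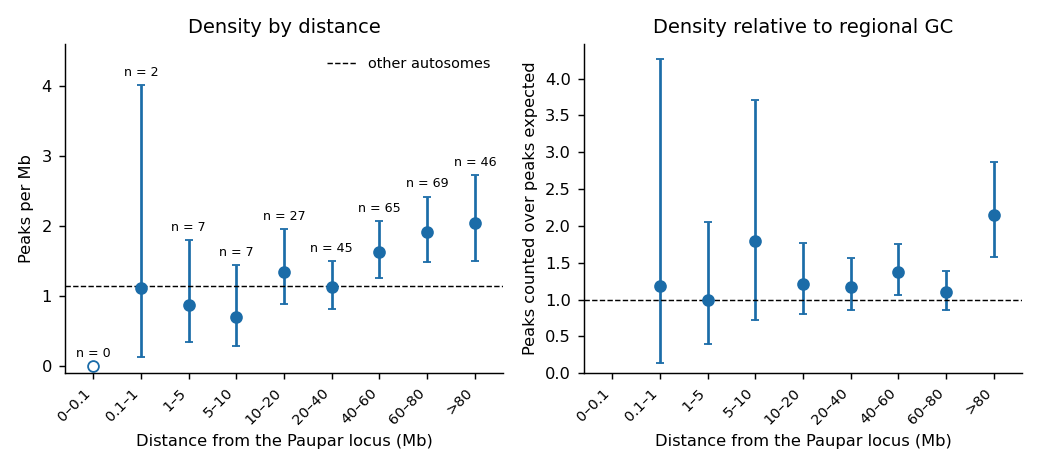
Left, peaks per unambiguous Mb of chromosome 2 by distance from the *Paupar* locus (points, with exact Poisson 95% intervals; n is the number of peaks, and the open point, drawn without its interval, is a count of 0), with the density of the other autosomes as a dashed line. Right, peaks counted over peaks expected from regional GC, with a dashed line at 1 and without the first band, for which no expected number was computed. The intervals of the bands within 10 Mb all include 1 on the right, and the band beyond 80 Mb lies at 2.15.

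Score and width neither rose nor fell steadily with distance. Over the 268 peaks, Spearman's rho between distance from the locus and score was 0.095 and between distance and width 0.109. By band, the median score was 15.04 from 0.1 to 1 Mb, 15.55 up to 5 Mb, 16.65 up to 10 Mb and 10.64 up to 20 Mb. It was then 11.07 up to 40 Mb, 13.43 up to 60 Mb, 11.69 up to 80 Mb and 14.195 beyond. Median width was lowest from 20 to 40 Mb, at 401 bp, and was 623.5 bp beyond 80 Mb. Score and width were related to each other, with a rho of 0.422. These are descriptions over peaks that share the same libraries. The widths ran from 195 to 4544 bp with a median of 547.5 bp, against 557 bp on the other chromosomes. There were 42 peaks wider than 1 kb (15.7%, 11.8 to 20.5), beside 17.8% of the whole list.

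**Figure D2:**
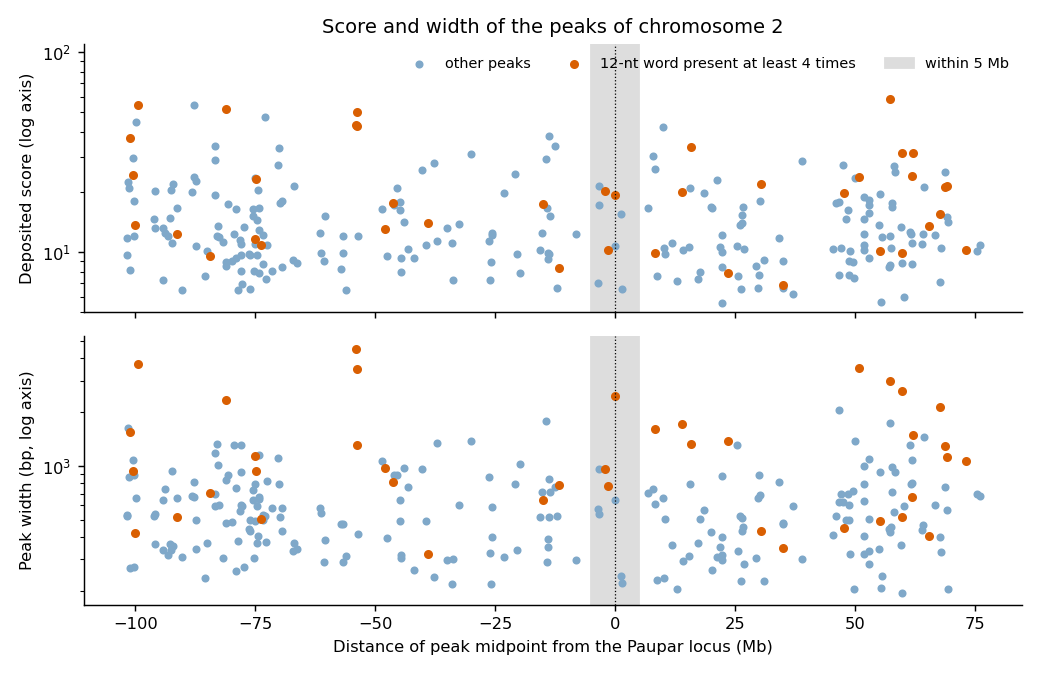
Deposited score (top, log axis) and peak width in bp (bottom, log axis) of the 268 peaks of chromosome 2 against the distance of the peak midpoint from the *Paupar* locus in Mb, with the region within 5 Mb in grey. Orange points are the 40 peaks in which some 12-nt word occurs at least 4 times; the cis peaks reach a score of 21.35, and of the 10 highest scores, up to 58.42, 9 lie at least 53.7 Mb away and 1 lies at 9.89 Mb.

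In fixed windows of 5 Mb counted from the start of the chromosome, the 37 windows held a median of 6 peaks. The window of the locus (105 to 110 Mb) held 4, with 3.06 expected from regional GC. Of the other windows 26 held more peaks, 4 held as many and 6 held fewer. The variance of the counts was 2.78 times their mean, so the Poisson intervals understate the spread between windows. Over the 37 windows the number of peaks had a Spearman's rho of 0.594 with GC content, 0.417 with the number of protein-coding gene starts and 0.346 with distance from the locus. These are descriptions, and neighbouring windows share base composition and gene density.

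The window with most peaks was that from 30 to 35 Mb, with 20 (12.2 to 30.9), where 11.7 were expected from GC. It lies in a gene-rich and GC-rich stretch of 93 gene starts and 48.4% GC. Windows at 25 to 30, 160 to 165 and 165 to 170 Mb followed with 14 each, where 12.7, 9.35 and 12.6 were expected. Together these 4 windows held 62 peaks (23.1% of the chromosome). In the first window, peaks among the first 50 of the chromosome by score were chr2:32570564-32571088 (score 47.52), 2.23 kb upstream of *Cdk9*, the kinase of the elongation factor P-TEFb, chr2:30409463-30409951 (23.39, nearest to *Cstad*) and chr2:30627571-30628507 (23.23, nearest to *1700001O22Rik*). From 160 to 165 Mb they were chr2:162779477-162782451 in *L3mbtl1*, described below, chr2:163664081-163664632 (26.94), 15.03 kb upstream of *Kcnk15*, a two-pore-domain potassium channel, and chr2:163862295-163863217 (25.33) in an untranslated exon of *Pabpc1l*. From 165 to 170 Mb they were chr2:165334220-165336859 (31.40) in the glucose transporter gene *Slc2a10*, chr2:167564505-167565995 (31.25) nearest to *Tmem189*, chr2:167439821-167440485 (24.03) in an intron annotated to both *Ube2v1* and *Tmem189*, and chr2:169941086-169942540 (21.22) in the zinc finger gene *Zfp217*. From 25 to 30 Mb there were none.

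The first 25 Mb of the chromosome stood above the number expected from GC throughout, a stretch picked out after the counts were seen. Each of its 5 windows held at least 1.91 times its expected number, and together they held 46 peaks against 20.05. Single windows elsewhere stood as high, with 2.74 times at 40 to 45 Mb (4 peaks), 2.63 at 60 to 65 Mb (7 peaks) and 2.22 at 85 to 90 Mb (3 peaks). *Frmd4a*, which encodes a FERM-domain scaffold protein, and *Ccdc3* had 6 peaks each in their regulatory domains, the most of any gene of the chromosome, and *Camk1d*, a calcium/calmodulin-dependent kinase, had 5. All 3 start within this stretch. At the other extreme, the window from 145 to 150 Mb held 0 peaks where 5.35 were expected, which allows up to 3 peaks at that floor and 3.69 by the exact interval, and belongs to the longest gap between peaks, 6.44 Mb from 144.4 to 150.9 Mb. The window from 175 to 180 Mb held 1 peak where 7.12 were expected, and that from 95 to 100 Mb held 1 where 1.14 were. From 85 to 90 Mb lies a cluster of olfactory receptor genes, 217 of the 222 gene starts of that window, and 3 peaks were counted there against 1.35 expected. Of the 286 olfactory receptor genes of the chromosome, 1 had a peak midpoint within 5 kb of its start and 0 had one in the gene body. Of all protein-coding genes of the chromosome 2.28% had a peak within 5 kb of the start and 6.78% had one in the gene body, and over all chromosomes 2.36% and 5.04% did. Olfactory receptor genes are short, and gene length was not taken into account.

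**Figure D3:**
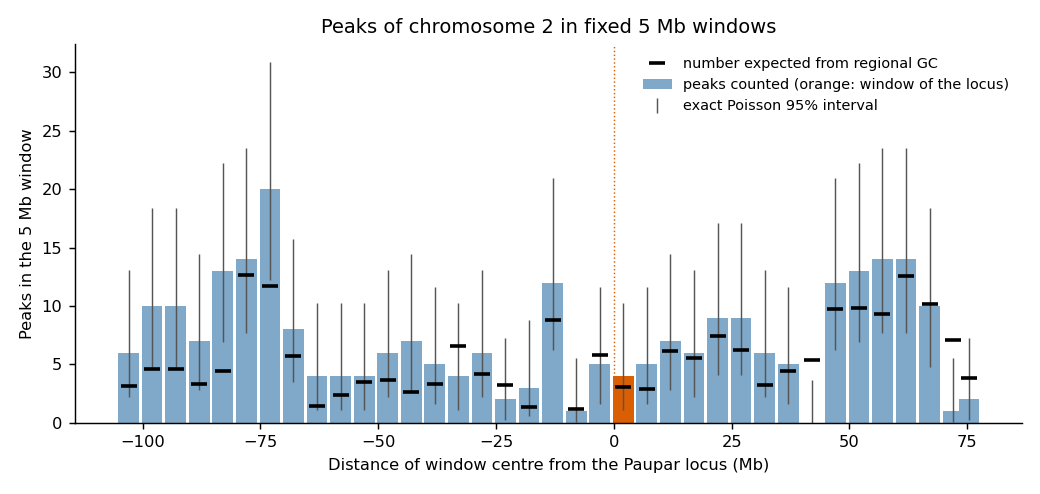
Peaks in each of the 37 fixed 5 Mb windows of chromosome 2 (bars, with exact Poisson 95% intervals as lines; the last window is shorter) against the distance of the window's centre from the *Paupar* locus in Mb, with the number expected from regional GC as black dashes. The window of the locus, in orange, holds 4 peaks, and the highest bar holds 20.

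As a whole, chromosome 2 held 1.50 peaks per unambiguous Mb (1.33 to 1.69) against 1.15 (1.11 to 1.20) on the other autosomes, a ratio of 1.31 (exact interval 1.15 to 1.48). It ranked 3 of 20 chromosomes (the autosomes and X) in peaks per Mb, and 6 in protein-coding genes per Mb (10.3). Against 205 peaks expected from regional GC, with X among the chromosomes that gave the densities, the 268 counted gave 1.31 (1.15 to 1.47), rank 5. Over the autosomes this ratio ran from 0.544 on chromosome 14 to 1.99 on chromosome 8. On the low-coordinate side 153 peaks stood against 99.2 expected (1.54, 1.31 to 1.81), and on the high side 115 against 106 (1.09, 0.896 to 1.30). Without the first 25 Mb described above, the low side had 107 peaks against 79.1 (1.35, 1.11 to 1.63), an interval that overlaps that of the high side. Per Mb the sides were alike, at 1.49 (1.27 to 1.75) and 1.51 (1.25 to 1.82).

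**Figure D4:**
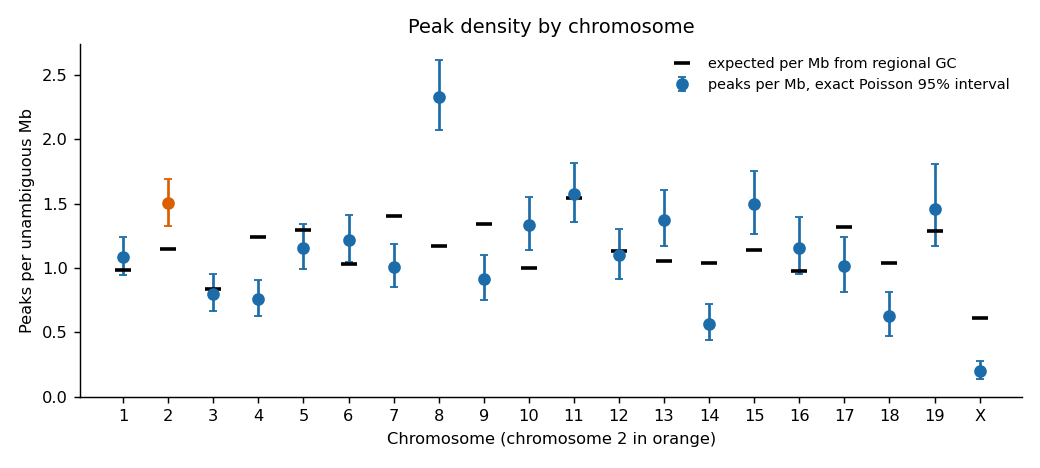
Peaks per unambiguous Mb on each autosome and the X chromosome (points, with exact Poisson 95% intervals; chromosome 2 in orange) beside the density expected from regional GC on the remaining chromosomes (dashes). Chromosome 2 lies at 1.50 per Mb, above its dash, and ranks 3 of 20.

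By position in genes, 141 peaks (52.6%, 46.6 to 58.5) had their midpoint inside a protein-coding gene, against 46.6% (44.7 to 48.5) on the other chromosomes. Of these, 127 were in introns, 9 in untranslated exons and 5 in coding exons, and the remaining 127 were outside protein-coding genes. Within 5 kb of a protein-coding gene start there were 36 (13.4%, 9.86 to 18.0), beside 16.1% of all peaks, and none of these was in cis. Peaks less than 10 kb from another made 10 pairs and no longer run, so 20 peaks (7.46%, 4.88 to 11.2) had a close neighbour, against 13.6% on the other chromosomes. The *Pax6os1* pair was 1 of these 10.

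The highest score of the chromosome, 58.42, rank 50 of the whole list, belonged to chr2:162779477-162782451, a peak of 2975 bp in an intron of *L3mbtl1*, which encodes a chromatin-binding MBT-domain protein. The second, chr2:17652836-17653502 (54.66), covered the start of *Nebl*, which encodes the actin-binding protein nebulette. Next came chr2:5997012-6000716 (54.58; 3705 bp), nearest to *5430407P10Rik*, and chr2:24488039-24490376 (52.03; 2338 bp), in an intron of *Cacna1b*, the pore subunit of N-type calcium channels. A close pair lay near *Rbm43*, an RNA-binding motif gene, with chr2:51801799-51803104 (50.24) upstream of it and chr2:51803294-51806781 (42.83) in an intron of *Nmi*. The peak near *Cdk9* was sixth. The last of the first 10 were chr2:5571735-5572393 (44.68) in an intron of *Camk1d*, chr2:51406108-51410651 (43.20), nearest to the bitter taste receptor gene *Tas2r134*, and chr2:115388832-115389488 (42.45), nearest to *BC052040*. The *Tas2r134* peak was also the widest, at 4544 bp, followed by that near *5430407P10Rik* and by chr2:156309729-156313276 (3548 bp, score 23.89), in an intron of *Epb4.1l1*, a membrane skeleton gene.

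Some of the highest and widest peaks held a short word many times over. In each peak, the most non-overlapping copies of any 12-nt word on the plus strand were counted. At least 4 copies were found in 40 peaks (14.9%, 11.2 to 19.7), beside 18.1% of the whole list and 57 of 536 directly adjoining regions of the same width (10.6%, 8.30 to 13.5). At least 8 copies were found in 22 peaks (8.21%, 5.48 to 12.1) and 19 adjoining regions (3.54%, 2.28 to 5.47), where on the other chromosomes 11.2% of peaks (10.04 to 12.5) and 5.25% of adjoining regions did. Of the 20 highest-scoring peaks 10 held a word at least 8 times, against 12 of the other 248. The 22 peaks had a median score of 24.1 and a median width of 1518.5 bp, against 12.05 and 523.5 bp for the remainder. The other chromosomes were alike in this, with 22.98 and 1206 bp against 12.14 and 524 bp. Wider regions have more room for copies, and among the 42 peaks over 1 kb 15 held a word at least 8 times (35.7%), as did 11 of 84 adjoining regions of their widths (13.1%). In cis, 3 of the 9 peaks held a word at least 4 times. The *Paupar* locus itself held a word 5 times.

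The word repeated in most peaks of the chromosome was AGGAGGAGCAGG or its reverse complement CCTGCTCCTCCT, found by a count over all 12-nt words and chosen from these values. It had at least 4 copies in 8 peaks (2.99%, 1.52 to 5.78), in 4 of the 536 adjoining regions (0.746%), and in 101 of 2581 peaks of the other chromosomes (3.91%, 3.23 to 4.73). All 8 were wider than 1 kb, and 6 were among the 20 highest scores: the peaks near *5430407P10Rik* and *Tas2r134*, the *Cacna1b* peak, both near *Rbm43*, and chr2:4438372-4439917 in *Frmd4a* (score 37.18). None was in cis, and the locus held 0 copies. Stretches of the 4 highest repeat peaks are shown with their most repeated 12-nt word in capitals, at chr2:162781482-162781631, chr2:6000349-6000498, chr2:24489760-24489909 and chr2:51801799-51801948. The first has a unit of its own, and the other 3 are runs of closely related trinucleotides on 1 strand or the other.
*L3mbtl1* peak: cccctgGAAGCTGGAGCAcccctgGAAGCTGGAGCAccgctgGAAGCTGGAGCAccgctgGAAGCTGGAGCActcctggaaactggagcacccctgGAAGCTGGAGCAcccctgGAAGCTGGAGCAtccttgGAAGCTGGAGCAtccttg
*5430407P10Rik* peak: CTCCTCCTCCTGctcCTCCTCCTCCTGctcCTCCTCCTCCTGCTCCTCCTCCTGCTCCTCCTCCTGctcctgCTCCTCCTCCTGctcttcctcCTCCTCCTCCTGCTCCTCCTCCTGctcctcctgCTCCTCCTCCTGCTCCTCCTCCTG
*Cacna1b* peak: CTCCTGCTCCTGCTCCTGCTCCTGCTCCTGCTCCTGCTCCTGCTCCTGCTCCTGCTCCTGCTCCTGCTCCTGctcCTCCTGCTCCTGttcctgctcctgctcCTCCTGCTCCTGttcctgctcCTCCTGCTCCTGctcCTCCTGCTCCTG
*Rbm43* peak: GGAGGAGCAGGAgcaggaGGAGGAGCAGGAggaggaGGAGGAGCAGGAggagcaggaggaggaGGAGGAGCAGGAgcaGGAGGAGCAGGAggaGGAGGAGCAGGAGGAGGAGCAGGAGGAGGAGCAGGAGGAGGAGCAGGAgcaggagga

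The *Nebl* peak was of another kind, with no 12-nt word repeated. It is shown over the 150 bases around the start of *Nebl* on the minus strand (chr2:17653016-17653165, plus strand sequence) as the highest of the 14 peaks within 1 kb of a gene start (5.22%, against 7.17% on the other chromosomes). No motif was searched in it.
*Nebl* start: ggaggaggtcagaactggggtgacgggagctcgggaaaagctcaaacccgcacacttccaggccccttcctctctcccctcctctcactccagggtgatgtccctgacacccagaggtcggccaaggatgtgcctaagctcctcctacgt

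Short matches to the capture oligonucleotides were more common in peaks than beside them. An exact match of at least 10 nt, on either strand, to any of the 4 was found in 63 peaks (23.5%, 18.8 to 28.9), beside 24.6% of the whole list. Of the adjoining regions of the same width 45 of 536 held one (8.396%, 6.33 to 11.05), a ratio of 2.80 (1.88 to 4.20). Median GC content was 48.0% in the peaks and 45.3% in the adjoining regions, and its part in this ratio was not tested. On the other chromosomes the shares were 24.7% and 10.4%. By local alignment of the *Paupar* sequence, the paper found no evidence of complementarity at the bound sites. That is a different measure from short exact matches to 4 oligonucleotides on either strand. At least 11 nt were matched in 19 of 268 peaks and 15 of 536 adjoining regions, a ratio of 2.53, and at least 12 nt in 3 and 5, too few to compare. PauparCHART254 was matched in 25 of the 268 peaks and 9 of the 536 adjoining regions, PauparCHART2041 in 16 and 8, PauparCHART2067 in 17 and 13, and PauparCHART428 in 15 and 18. The oligonucleotide of the *LacZ* control was matched in 2 peaks (0.746%), against 6 of 2581 on the other chromosomes (0.232%). It is a single oligonucleotide beside the 4 of *Paupar*, and its matches in adjoining regions were not counted.

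By score, a match was held by 7 of 33 peaks up to 8 (21.2%), 22 of 91 above 8 and up to 12 (24.2%), 26 of 85 above 12 and up to 20 (30.6%) and 8 of 59 above 20 (13.6%). In cis, 3 of 9 peaks held one, and among the 20 highest scores 3 did. Peaks with a match had a median score of 12.33 and those without 12.27. The 3 peaks with the longest matches are shown with the matched bases in capitals. The longest, 13 nt of PauparCHART2067, was in a peak at chr2:9334891-9335411 (score 14.74) in an intron of the non-coding gene *Gm13219*. The next, 12 nt of the same oligonucleotide, was in the cis peak upstream of *Ldlrad3*, 3.46 Mb from the locus. The third, also 12 nt of it but on the other strand, was at chr2:70512349-70512643 (score 13.16), in an intron of *Gorasp2*, a Golgi stacking protein gene. The stretches are chr2:9335262-9335411, chr2:102038667-102038816 and chr2:70512410-70512559.
Peak in *Gm13219*: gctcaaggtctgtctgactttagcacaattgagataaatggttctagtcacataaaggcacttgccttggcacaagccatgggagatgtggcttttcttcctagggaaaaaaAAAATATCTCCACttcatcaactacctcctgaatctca
*Ldlrad3* peak: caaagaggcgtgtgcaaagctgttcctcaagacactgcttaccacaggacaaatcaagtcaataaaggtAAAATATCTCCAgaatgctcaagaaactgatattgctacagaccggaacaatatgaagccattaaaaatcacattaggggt
*Gorasp2* peak: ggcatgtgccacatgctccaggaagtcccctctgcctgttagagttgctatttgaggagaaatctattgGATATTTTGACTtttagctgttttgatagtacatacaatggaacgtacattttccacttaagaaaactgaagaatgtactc

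**Figure D5:**
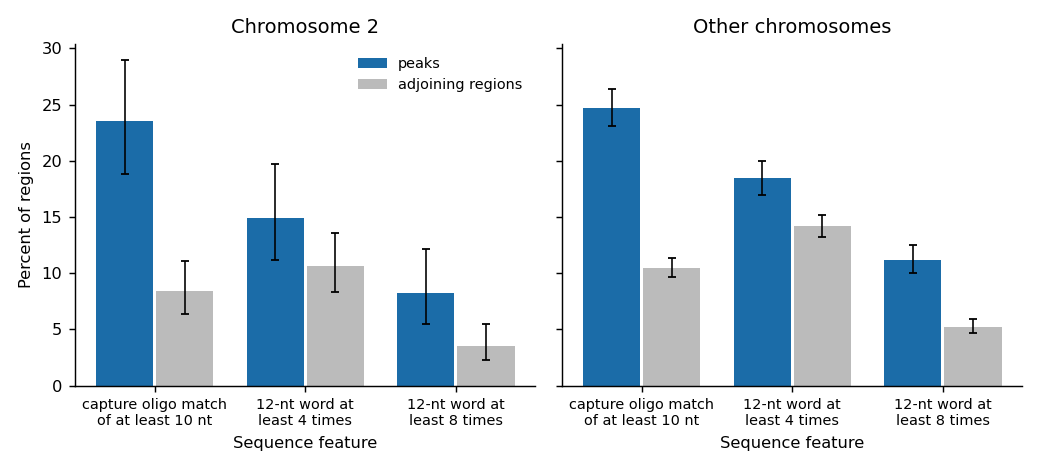
Percent of peaks (blue) and of directly adjoining regions of the same width (grey) with an exact match of at least 10 nt to a capture oligonucleotide, and with a 12-nt word present at least 4 or 8 times, on chromosome 2 (left) and on the other chromosomes (right); lines are Wilson 95% intervals. On chromosome 2 the oligonucleotide match stands at 23.5% of peaks and 8.396% of adjoining regions.

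Each gene was given a regulatory domain, with a basal stretch of 5 kb before and 1 kb after its start that was lengthened on both sides until it met a neighbour's basal stretch or reached 1 Mb. Of the 1845 protein-coding genes of chromosome 2, 357 (19.3%, 17.6 to 21.2) had a peak in their domain, beside 16.5% of all protein-coding genes. Neighbouring genes can share a peak and genes of sparse regions have longer domains, so gene counts are not independent. Genes of the chromosome were then read by their known roles.

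Around *Pax6*, 5 of 18 protein-coding genes had a peak in the domain, against 19.3% of the genes of the chromosome, and these 5 rest on 4 peaks. *Pax6* itself and *Rcn1*, a calcium-binding protein of the endoplasmic reticulum, shared the *Pax6os1* pair, *Fshb* and the potassium channel gene *Kcna4* shared the peak at 1.49 Mb, and *Mpped2* had its intronic peak. *Wt1*, a zinc finger gene of kidney and gonad development, and *Elp4*, a subunit of the elongator complex, had none. None of these genes had a peak within 5 kb of its start. The *HoxD* cluster, which holds homeobox genes that pattern limbs and the body axis, was counted with its neighbour *Mtx2*, a mitochondrial protein gene. Of these 11 genes 0 had a peak in the domain. The median distance from their starts to a peak was 960215 bp, against 237008 bp over all protein-coding genes of the chromosome. They lie side by side, with domains cut short by their neighbours, and all had the same nearest peak, chr2:75495267-75496638. Both values thus describe a single place.

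Of the 31 neural and endocrine transcription factor genes 11 had a peak in the domain, where 19.3% of the genes of the chromosome did, and 5 had one in the gene body, where 6.78% did. Genes differ in length and in the size of their domains, and the part of this in these counts was not tested. *Nr4a2*, a nuclear receptor of midbrain dopamine neurons, held chr2:56968815-56969879 (score 16.41), 7.07 kb downstream of its start. *Myt1*, a zinc finger factor of neural progenitors, held chr2:181502115-181502788 (10.83) 4.41 kb downstream. *Rxra*, the retinoid X receptor α, held 2 peaks (9.74 and 10.96), *Meis2*, a homeodomain cofactor, 1 (10.48) and the zinc finger gene *Tshz2* 1 (12.27). All of these were in introns.

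Of the 26 genes of synapses and neuronal signalling 12 had a peak in the domain and 9 in the gene body, to be read against the same shares of 19.3% and 6.78%. The highest beside the *Cacna1b* peak was in *Chrm4*, a muscarinic acetylcholine receptor, at chr2:91763267-91764108 (score 38.24, rank 11), 1.34 kb downstream of the start. *Cacna1b* held a further peak with a score of 8.94. *Plcb4*, a phospholipase C of G protein signalling, held 2 (7.72 and 18.03) and its relative *Plcb1* 1 (8.53). Single intronic peaks lay in *Gad2*, an enzyme of GABA synthesis (12.02), *Lrp4*, a receptor of the neuromuscular junction (16.55), *Dnm1*, the neuronal dynamin (8.71), and *Kif5c*, a kinesin motor (6.50). The dynamin peak lies in the gene body and outside its regulatory domain. Among 5 sodium channel genes, *Scn1a*, *Scn3a* and *Scn9a* had a peak in the domain, but *Scn1a* and *Scn9a* shared the same peak, in an intron of *Scn9a* (13.99), so the 3 rest on 2 peaks.

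The other groups are also to be read against the 19.3% of all genes of the chromosome, and each is small. Among them, 3 of 15 genes of the cell cycle and self-renewal had a peak in the domain, with *Tpx2*, a spindle assembly factor, holding chr2:152675503-152676201 (score 10.51) 2.15 kb downstream of its start. The islet hormone and secretion genes had 3 of 13, the Notch pathway genes 1 of 7, and a list of genes known for imprinting in mouse or human 3 of 8. These were *Nnat* and *Blcap*, and *L3mbtl1*, for which imprinting is known in human. Several groups share genes, and *Pax6* and *Neurod1* counted in the islet group too.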

How the data were processed

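The data are CHART-Seq libraries of N2A cells, 2 *Paupar* pull-downs, 2 *LacZ* pull-downs and 1 input. Reads were aligned by the authors to the mm9 build using bowtie, with multiply mapping reads dropped, and MACS2 was then run on each *Paupar* pull-down, once with the *LacZ* control and once with input as background. They deposited 1 list of 2849 peaks common to both comparisons, with a score per peak whose unit is not given in the sources used here. Calls with a −log10 q of 5 or less had been dropped by the authors, and the lowest score in the list is 5.34. The score was used only for ranks, medians and thresholds. How both pull-downs were joined is likewise not given, and depth per library is unknown from the list.

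Positions, sequences and genes came from the NCBIM37 genome, the assembly of mm9, with 22380 protein-coding genes of its annotation. A peak was placed by its midpoint. The locus was placed by exact match of the study's cloning primers. Densities are per unambiguous Mb, with exact Poisson intervals for counts and Wilson intervals for shares (95%). Computation used scipy 1.17.1 and numpy 2.4.6 under Python 3.11.15, with plots in matplotlib 3.10.9. Oligonucleotide matching, repeat counts, peak merging, gene domains, the GC expectation and the Poisson and ratio intervals were tested on constructed or simulated data. The other steps were not.

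Named peaks were the 5 nearest to the locus, the 10 highest, the 3 widest, and those among the first 50 in the windows with most peaks (4 windows, since 3 tied for second place). Other cis peaks, those with the longest matches, the repeat word, the first 25 Mb and the olfactory receptor genes were chosen after their values were seen. Named genes were those nearest to named peaks and list genes with a peak in the body or within 5 kb of the start. Of the listed genes, *Dcdc1* was not found in the annotation and *L3mbtl1* was matched through its older symbol. Of the list genes with a peak, 1 is not reported here. The members and lists were chosen with earlier results of these data known. Alternatives are given in the closing section.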

Additional observations from a re-analysis of the deposited data

How the results depend on the processing

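No paired analysis was possible because the list holds no value per library, and replicates could not be left out in turn for the same reason. The 58 alternatives gave 42 values within the counting interval of the reported one (for window counts, within 1.5 times), and 16 outside it. The ratio of cis to rest ranged from 0.504 (within 10 Mb) to 0.828 (within 2 Mb), and was 0.756 relative to regional GC. The ratio of chromosome 2 to the other autosomes ranged from 1.29 to 1.36. Peaks per Mb fell to 1.05 with a score of at least 10 and to 1.27 with peaks of at most 1 kb, since both leave out peaks. A 1 Mb window around the locus, which holds the *Pax6os1* pair, gave 10 peaks per 5 Mb in place of 4, above the window median of 6 where the reported value is below it. The median cis score was 10.76 within 2 Mb, below the 12.27 of the rest of the chromosome, and between 12.38 and 16.1 at the other distances. The median cis width was 1558 bp within 1 Mb, where there are only these 2 peaks. The share of peaks with an oligonucleotide match was 60.1% at 9 nt, 7.09% at 11 nt, 1.12% at 12 nt and 12.3% in the central 200 bp, and its ratio to adjoining regions was 1.68 at 9 nt, 2.53 at 11 nt, 1.20 at 12 nt, 2.51 with a score of at least 10 and 3.33 with peaks of at most 1 kb. The share of genes with a peak was 15.2% with a score of at least 10, 11.8% by nearest start only and 13.7% where a domain could reach no further than 100 kb. As alternatives chosen after seeing the data, the low side over GC was 1.35 without the first 25 Mb, and the share of peaks with a repeated word was 21.3% at 3 copies, 8.21% at 8 copies, 18.3% for words of 10 nt and 10.1% for words of 15 nt. The depth behind the peaks is unknown, and the 9 cis peaks limit every cis value.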
